A study of Mus musculus with 8 samples.

Results

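Tle4, Syt6, Hs3st4, Sulf1, Rprm, Zfpm2, Nxph3 and Garnl3 were examined as 8 genes that mark layer 6 corticothalamic neurons. They were taken by name from the 17836 genes of 1 deposited count table and the 15769 genes of the other, and all 8 were found in both tables. The cells came from frontal isocortex of mice at postnatal day 7 and were profiled by droplet single-cell RNA sequencing after a fluorescence sort. The D1Tom sort took cells in which Drd1a-tdTomato, a transgenic reporter of the dopamine D1 receptor gene, was on, and the GTE sort took cells positive for golli-τ-eGFP. Control mice were Foxp2 flox/flox without Cre, and cKO mice were Emx1-Cre; Foxp2 flox/flox, so both genotypes carried the floxed alleles and the sort's reporter. Emx1-Cre acts in the lineage of dorsal forebrain progenitors, which makes cortical excitatory neurons and glia. Each sort held 2 control and 2 cKO libraries, 8 in all, called control 1, control 2, cKO 1 and cKO 2. D1Tom cKO 2 and GTE cKO 2 differ in labelled sex from the other libraries of their sort.

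Layer 6 corticothalamic neurons send their axons from the deepest cortical layer to the thalamus and feed back on the sensory and motor relays that drive the cortex. Their identity is set by transcriptional regulators such as Tbr1, Sox5 and Tle4. Foxp2, the gene deleted here, is a transcription factor found in them. Layer 6b neurons, which lie just below and derive in part from the subplate, share several of the same genes. Tle4 is a co-repressor and Zfpm2 (Fog2) a zinc finger cofactor of GATA factors. Rprm encodes Reprimo, a cell cycle inhibitor induced by p53. Hs3st4 adds sulphate to heparan sulphate chains and Sulf1 removes it. Syt6 is a synaptotagmin and Nxph3 a secreted ligand of alpha-neurexins. Garnl3 carries a domain of proteins that switch off Rap GTPases.

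The D1Tom libraries held 2395 to 3206 cells and 27323298 to 36379194 counts, with median counts per cell of 7198 to 12815. The GTE libraries held 1440 to 3948 cells and 4878370 to 6092396 counts, with medians of 1085.5 to 2982, and GTE cKO 1 had the fewest and deepest cells. Libraries of 1 sort shared 4 to 27 cell barcodes per pair, and libraries of different sorts 1 to 27. Levels are CPM, a gene's summed counts scaled to all counts of the cells named, always in the order control 1, control 2, cKO 1, cKO 2. They are not divided by gene length, so levels are compared between cells and not between genes. Groups of 2 libraries cannot reach a p below 0.333 by an exact permutation test, so tests were made with edgeR's model across all genes, on sums per library. Fold changes are log2, cKO over control. Per the labels, D1Tom control 1 and cKO 1 came from 1 batch and control 2 and cKO 2 from another.

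Rprm is an intronless gene of 1460 bases on the minus strand of mouse chromosome 2 (GRCm38, chr2:54084093-54085552), and no other gene of GENCODE M21 shares its exon bases. Hs3st4 spans 416121 bases on the plus strand of chromosome 7 (chr7:123982869-124398989) and shares exon bases with Gm27040 on the opposite strand, so their reads can be told apart only where counting used strand. The 250 bases before the RefSeq starts of these 2 genes (GRCm38.p6) are shown because Rprm and Hs3st4 were the members with both cKO libraries below both controls in the chosen corticothalamic cells. Capitals mark the GC box core CCGCCC on either strand, which 32.7% of all 32851 windows of this length in the table hold.
Rprm, chr2:54085553-54085802, minus strand: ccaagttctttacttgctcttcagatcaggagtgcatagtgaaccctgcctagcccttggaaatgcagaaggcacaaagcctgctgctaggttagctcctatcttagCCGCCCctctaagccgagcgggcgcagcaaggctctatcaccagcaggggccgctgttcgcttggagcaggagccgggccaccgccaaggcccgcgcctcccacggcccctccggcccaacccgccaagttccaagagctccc
Hs3st4, chr7:123982578-123982827, plus strand: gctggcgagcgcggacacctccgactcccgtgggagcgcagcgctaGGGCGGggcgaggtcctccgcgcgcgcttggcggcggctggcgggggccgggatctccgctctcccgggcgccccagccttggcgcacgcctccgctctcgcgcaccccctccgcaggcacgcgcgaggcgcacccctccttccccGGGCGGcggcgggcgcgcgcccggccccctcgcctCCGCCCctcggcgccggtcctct
The Rprm window is 62.4% G and C with 13 CpG pairs, and the Hs3st4 window 82% with 43, beside medians of 52.4% and 6 over all windows. RefSeq gave 9 such windows for 5 of the 8 members (Garnl3, Hs3st4, Rprm, Syt6 and Tle4), and 8 of the 9 hold CCGCCC or its complement. The forkhead-type motifs TGTTTAC and TGTTTGC, searched on both strands, are in none of the 9 windows and in 3.17% and 4.30% of all windows. This says only that these letters are not in these 250 bases.

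The other members are given in the same build. Sulf1 is at chr1:12692277-12861192 (plus strand), Garnl3 at chr2:32986224-33131654 (minus), Syt6 at chr3:103575231-103645569 (plus) and Nxph3 at chr11:95509845-95514570 (minus). Zfpm2 is at chr15:40655035-41104592 (plus) and Tle4 at chr19:14448150-14598051 (minus). Syt6 shares exon bases with the pseudogene Atg4a-ps on the opposite strand, and the remaining members with no annotated gene.

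The first question was where among excitatory neurons each member is found. D1Tom cells were sorted into 5 excitatory types by the counts of fixed marker lists, and each member was read in corticothalamic-marker cells chosen on the other 7 members, so that no gene selected the cells it was read in. With all 8 members in the choice, 189, 128, 74 and 69 D1Tom cells were corticothalamic-marker cells. Of the 8 members, 5 had their highest mean level over the 4 libraries in these cells (Syt6, Hs3st4, Rprm, Zfpm2 and Garnl3), and 3 were highest in layer 6b-marker cells (Tle4, Nxph3 and Sulf1). Among those 5, the corticothalamic range was clear of the next type's for Syt6 alone.

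Syt6 drew the sharpest border within layer 6. Its level in corticothalamic-marker cells was 288, 146, 173 and 168 CPM, and in layer 6b-marker cells it was 0, 34.4, 0 and 13.4 CPM. All 4 corticothalamic values exceeded every layer 6b value, and the mean was 16.3 times higher. In upper layer-marker cells the mean was 3.18 CPM.

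Nxph3, the neurexin ligand, ran the other way. It was at 130, 111, 90.3 and 113 CPM in corticothalamic-marker cells and at 233, 186, 229 and 264 CPM in layer 6b-marker cells, 2.05 times higher on average and with no overlap. It was at 17.3 CPM or less in every library of the pyramidal tract, upper layer and Slc30a3 Oprk1 types. Layer 6b-marker cells numbered 3 to 20 per library over the 8 choices of cells, so each of those values rests on few cells.

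Tle4 and Hs3st4 were high in both layer 6 types. Tle4 was at 340, 305, 243 and 363 CPM in corticothalamic-marker cells and at 492, 357, 336 and 446 CPM in layer 6b-marker cells, and these ranges overlapped. The next type, pyramidal tract-marker cells, had 33.2 to 50.9 CPM. Hs3st4, which was at 330, 284, 225 and 218 CPM in corticothalamic-marker cells, had 251, 207, 222 and 169 CPM in layer 6b-marker cells and 29.7 to 38.4 CPM in pyramidal tract-marker cells. For both genes the 2 layer 6 types overlapped each other and neither overlapped the other types.

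Zfpm2 and Sulf1 also had their highest levels in the layer 6 types. Zfpm2 was at 46.8, 53.9, 40.0 and 57.2 CPM in corticothalamic-marker cells, whose range overlapped the 20.4 to 46.1 CPM of layer 6b-marker cells, and at 12.9 CPM or less in the upper layer and pyramidal tract types. Sulf1 was at 36.6, 30.6, 35.1 and 30.8 CPM in corticothalamic-marker cells, with 13.3 to 66.8 CPM in layer 6b-marker cells. It was also present in Slc30a3 Oprk1-marker cells, at 6.79 to 28.0 CPM, and at 4.67 CPM or less in the pyramidal tract and upper layer types.

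Rprm and Garnl3 were not restricted to layer 6. Rprm was at 667, 388, 317 and 219 CPM in corticothalamic-marker cells, at 469, 301, 344 and 229 CPM in pyramidal tract-marker cells and at 448, 189, 248 and 172 CPM in upper layer-marker cells. Its ranges in these 3 types overlapped, and layer 6b-marker cells had the lowest of the 5 types with 73.5 to 143 CPM. Outside the neurons, oligodendrocyte precursors held Rprm at 361, 193, 279 and 163 CPM, against 66.0 to 94.5 CPM in astrocytes. Other members were found in these glia too. Tle4 was at 71.4 to 80.5 CPM in the precursors and 47.1 to 74.4 CPM in astrocytes, and Zfpm2 at 16.1 to 20.4 and 14.6 to 21.2 CPM. Hs3st4 was at 26.2 to 65.8 and 9.77 to 46.0 CPM, and Syt6 at 24.2 to 27.6 and 9.89 to 21.2 CPM. Sulf1 and Nxph3 were at 12.3 CPM or less in both. Garnl3 lay between 61.2 and 191 CPM in all 5 excitatory types, and each neighbouring pair in its order overlapped.

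**Figure D1:**
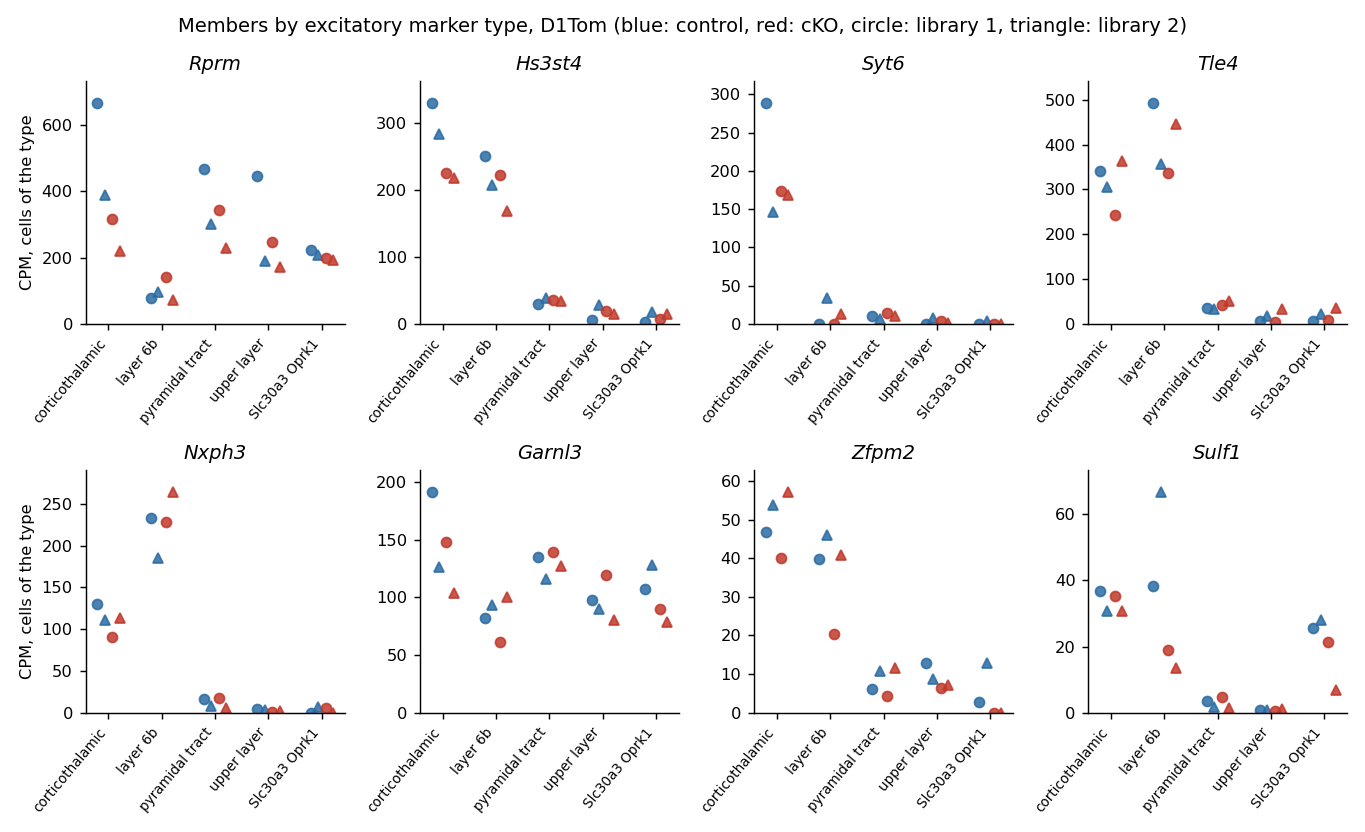
Level of each member (CPM of the cells of a type, linear axis from 0) in 5 excitatory marker types of the D1Tom sort, with 1 point per library (blue control, red cKO, circle library 1, triangle library 2). Syt6 is near 0 outside corticothalamic-marker cells, Nxph3 is highest in layer 6b-marker cells, and Rprm and Garnl3 are spread over all 5 types.

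The corticothalamic-marker cells were not uniform. Clustering without the 8 members, Foxp2 or Drd put 124, 61, 37 and 39 of them in cluster 10, which was called corticothalamic-like from the fixed markers, Syt6, Nxph3, Hs3st4 and Tle4 being among its 10 leading genes. A further 20.1%, 21.9%, 21.6% and 10.1% lay in cluster 18, which was left unnamed and is led by Tshz2, Etv1 and Fezf2. In cluster 18 Tle4 was at 367, 393, 334 and 331 CPM and Nxph3 at 150, 110, 164 and 108 CPM, both overlapping their ranges in cluster 10 (312 to 439 and 151 to 187 CPM). Syt6 was 7.15 times lower there on average, at 54.6, 49.1, 21.2 and 18 CPM against 371, 190, 293 and 168 CPM. Sulf1 had counts in only 1 of the 4 libraries of cluster 18, at 4.34 CPM, and was at 37.9 to 58.6 CPM in cluster 10. Rprm was highest in cluster 18 of the 6 excitatory clusters, at 978, 579, 627 and 328 CPM. Zfpm2 was at 63.0 to 78.7 CPM in cluster 10 and 7.06 to 14.5 CPM in cluster 18, and Hs3st4 at 252 to 357 and 191 to 247 CPM. Tle4, Nxph3, Rprm and Garnl3 thus overlapped between clusters 10 and 18, while the Syt6, Sulf1, Zfpm2 and Hs3st4 ranges did not.

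Over the 20 clusters with at least 50 D1Tom control cells, the genes most like each member were found by Pearson correlation of log2(CPM + 5) among 9705 genes. These clusters share libraries, so the values are descriptions. Nxph3 was most like Nptx1 (r = 0.945), Hs3st4 (0.855) and the layer 6b marker Cplx3 (0.835), and Tle4 was most like Nptx1 (0.834), Nxph3 (0.796) and Gsg1l (0.779). Hs3st4 was most like Cplx3 (0.927), Col12a1 (0.864) and Syt6 (0.858), and Syt6 like Hs3st4, Nxph3 (0.818) and Cplx3 (0.786). Syt6 and Hs3st4 were thus each among the other's nearest 3 genes, and Tle4 was in those of no member. Sulf1, Rprm, Zfpm2 and Garnl3 had no member among their nearest 3: Rprm was most like Phactr3 (0.90), Kcnmb4 (0.842) and Cobl (0.836), and Garnl3 like Mast1, Cadm3 (both 0.964) and the synaptic vesicle gene Syp (0.962). Sulf1 was most like Cbln1 (0.742), Ppp1r1b and Echdc2 (both 0.686), and Zfpm2 like Bcl9l (0.742), Fut9 (0.729) and Sema5b (0.697).

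The next question was whether the members differ between cKO and control. Foxp2, the deleted gene, was at 232, 182, 52.7 and 56.8 CPM in D1Tom corticothalamic-marker cells, with a log2 fold change of -1.87 (SE 0.23). Its edgeR adjusted p was 0.286, or 1.71e-05 with the batch as a block and 0.00037 by DESeq2. The tables count 3' ends, and whether these lie in the deleted part is not given in the sources used here.

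Over all D1Tom cells, 7 of the 8 members had a negative fold change, but none of the 8 passed at an adjusted p of 0.05, as 0% of the 14508 genes tested did by edgeR. With the batch as a block 0 members and 0.00689% of genes passed. None of the 8 had an unadjusted p under 0.05 (2.21% of all genes did), and DESeq2 called 0 of the 8 and 25 genes in all (0.163%). The median fold change of the members was -0.31, beside -0.01 for all genes. In 4 of the 8, both cKO libraries were below both controls, which held for 13.7% of all genes.

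Hs3st4 was 1 of those 4, at 48.8, 56.9, 34.4 and 38.4 CPM over all D1Tom cells. Its log2 fold change was -0.47 (SE 0.19, adjusted p 0.998), with -0.50 and -0.57 within the batches. Sulf1 was at 9.68, 7.03, 5.73 and 5.16 CPM (-0.55, SE 0.24), Nxph3 at 21.1, 17.9, 12.7 and 14.7 CPM (-0.43, SE 0.20) and Zfpm2 at 15.4, 16.6, 13 and 15.1 CPM (-0.12, SE 0.21). The Zfpm2 fold change was smaller than its standard error. Rprm was at 275, 171, 175 and 122 CPM, so control 2 fell below cKO 1, and its fold change was -0.53 (SE 0.24) with -0.65 and -0.50 within the batches. Tle4 was at 71.5, 73.2, 59.2 and 77.8 CPM, with a fold change of 0.00 (SE 0.22). Syt6 was at 37.1, 23.7, 28.7 and 21.9 CPM and Garnl3 at 85.8, 72.7, 81.3 and 57.6 CPM, both with overlapping groups. Within the batches both were lower in cKO, Syt6 by log2 ratios of -0.37 and -0.11 and Garnl3 by -0.08 and -0.33. Of the 8 members, 7 were lower in cKO in both batches, and Tle4 was not (-0.27 and 0.09). These ratios use library totals with no further scaling. Fitted that way, 64.0% of the 14508 genes had a negative fold change. The share of all genes lower in both batches was not computed, so the 7 have no background beside them.

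In such sums, fewer cells of a type and less RNA per cell cannot be told apart. Cells with excitatory markers were 27.5%, 32.6%, 18.3% and 13.5% of the D1Tom libraries (exact 95% binomial intervals, for counting error only, of 25.9 to 29.1%, 30.7 to 34.5%, 16.9 to 19.8% and 12.3 to 14.8%), lower in both cKO libraries. Corticothalamic-marker cells were 5.90%, 5.34%, 2.63% and 2.24% of all cells, and 21.5%, 16.4%, 14.3% and 16.5% of the excitatory cells, where the groups overlapped. The sort took reporter-positive cells, and the reporter gene's receptor row (Drd) was itself at 65.5, 64.4, 27.3 and 21.0 CPM over all cells. The part of the sort and of cell numbers in the all-cell values was not tested.

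**Figure D2:**
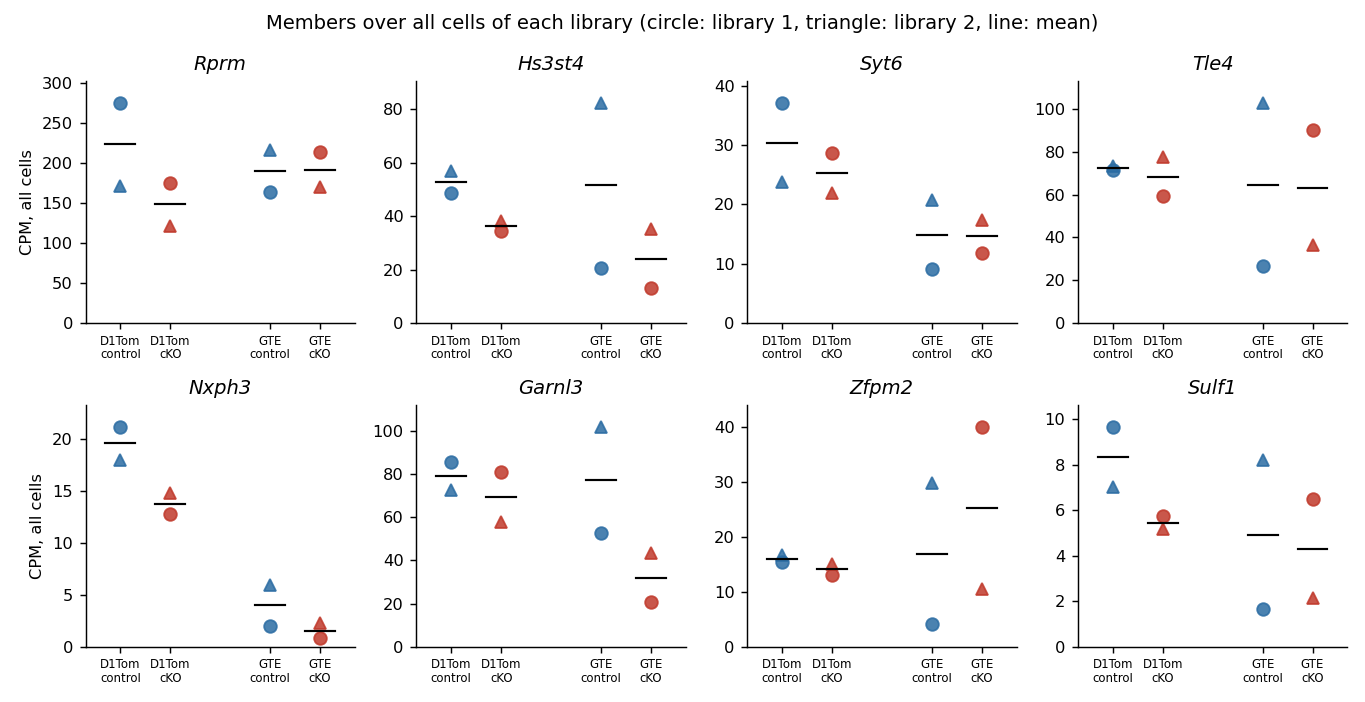
Level of each member over all cells of a library (CPM, linear axis from 0) in the D1Tom and GTE sorts (blue control, red cKO, circle library 1, triangle library 2, line group mean). In D1Tom the cKO points lie below the control points for Hs3st4, Sulf1, Nxph3 and Zfpm2. In GTE control 2 lies above control 1 for all 8 members, as for Hs3st4 at 82.4 against 20.7 CPM.

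Within D1Tom corticothalamic-marker cells, Rprm stood out among the 8. The 4 levels, 667, 388, 317 and 219 CPM, came from 169, 120, 61 and 64 cells chosen without it, and both cKO libraries were below both controls. Control libraries averaged 527 ± 197 CPM and cKO libraries 268 ± 69.0 CPM (SD, n = 2), and the log2 fold change was -0.94 (SE 0.29). Within batch 1 the log2 ratio was -1.07 and within batch 2 it was -0.82. Without a block, edgeR's unadjusted p was 0.0106 and its adjusted p 1.00, and 0 of 10265 genes (0%) passed. With the batch as a block the fold change was -0.92 and the adjusted p 1.22e-06, where 31 of 10265 genes (0.302%) passed. A block fitted to 4 libraries leaves little residual freedom per gene, so this edgeR p leans on variance estimates shared across genes. The Rprm call therefore depended on the fit: within each genotype the batch 1 library was higher than the batch 2 library, and the block takes out a shift shared by a batch. It was also called without control 2 (-1.26, adjusted p 0.0442), a fit in which 45 of 9960 genes (0.452%) passed, and over its alternatives in these cells the adjusted p ran from 1.22e-06 to 1.00. DESeq2 gave an adjusted p of 1.00 and called 0.0135% of genes.

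The same was seen by cluster. In cluster 10, with 195, 98, 92 and 78 cells, Rprm was at 511, 322, 195 and 154 CPM, a log2 fold change of -1.28 (SE 0.25) with -1.39 and -1.07 within the batches. The edgeR adjusted p was 1.00 without a block, 2.89e-07 with it (135 of 10181 genes, 1.33%, passed) and 2.19e-05 without the filter on low counts (81 of 14803 genes, 0.547%), and DESeq2 gave 0.0544 (0.0135% of genes called). Without the layer 6b-marker cells of the cluster the fold change was -1.32. The cells of cKO 1 stood apart in this cluster, with a median of 3803.5 counts against 12454 to 17958.5 in the other libraries and 6 Cajal-Retzius markers summing to 277 CPM against 45.1 to 58.0 CPM. Their part in the Rprm level was not tested, and Rprm in cKO 2, at 154 CPM, was also below both controls. Many cells belong both to the marker cells and to cluster 10, so the results are not independent.

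Depth was not equal between these cells. Median counts per corticothalamic-marker cell chosen without Rprm were 17629, 16465.5, 18045 and 11787. At 1000 counts drawn from each cell, Rprm was seen in 36.7%, 33.3%, 24.6% and 12.5% of them (exact 95% intervals 29.4 to 44.4%, 25.0 to 42.5%, 14.5 to 37.3% and 5.55 to 23.2%). Without thinning the shares were 87.6%, 84.2%, 60.7% and 81.2%. In astrocytes, at median depths of 7467.5, 9847, 6963.5 and 6476 counts, the thinned shares were 6.93%, 10.4%, 8.35% and 8.22%. At this depth the share in cKO 2 was not distinguishable from that in astrocytes. At 2000 counts per cell the corticothalamic-marker shares were 56.0%, 40.8%, 28.3% and 27.9%, with the cKO libraries alike and both below the controls, and those of astrocytes 11.9% to 17.2%. The summed level of 6 astrocyte markers in corticothalamic-marker cells was 620, 1812, 782 and 2146 CPM, high in both libraries of batch 2 and overlapping between the genotypes.

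Rprm was also lower in the cKO library of both batches in other sets of cells. The log2 ratios within batches 1 and 2 were -0.45 and -0.39 in pyramidal tract-marker cells, -0.85 and -0.13 in upper layer-marker cells and -0.38 and -0.25 in oligodendrocyte precursors. In cluster 18 they were -0.64 and -0.82. Rprm was likewise lower in both batches in interneurons (-0.48 and -0.36) and Slc30a3 Oprk1-marker cells (-0.17 and -0.12). In these 2 sets both cKO libraries were below both controls. Excitatory cells of no type had -0.13 and -0.34. In batch 1 the ratio was instead positive in astrocytes (0.36) and in the few layer 6b-marker cells (0.86). Whether the Rprm difference is larger in corticothalamic-marker cells than in these types was not tested.

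Hs3st4, the heparan sulphate 3-O-sulphotransferase, was the other member with no overlap in corticothalamic-marker cells. It was at 330, 284, 225 and 218 CPM, a log2 fold change of -0.43 (SE 0.20, edgeR adjusted p 1.00, and 0.682 with the block, where 0.148% of genes passed). The 2 batches gave -0.55 and -0.38. In cluster 10 it was at 355, 357, 268 and 252 CPM (-0.47, SE 0.18, unadjusted p 0.031), and in cluster 18 at 245, 247, 191 and 201 CPM. At 1000 counts per cell it was seen in 28.1%, 27.0%, 21.7% and 19.4% of the chosen cells, with overlapping intervals, and in 0.804% to 3.76% of astrocytes.

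The other 6 members had overlapping groups in corticothalamic-marker cells. Syt6 had 1 library apart, control 1 at 288 CPM, with the rest between 146 and 173 CPM, and its fold change was -0.30 (SE 0.29) with -0.73 in batch 1 and 0.21 in batch 2. Tle4, the co-repressor, was lowest and highest in the 2 cKO libraries (243 and 363 CPM), with a fold change of -0.04 (SE 0.25). Nxph3 (-0.19, SE 0.23), Garnl3 (-0.30, SE 0.25, with -0.37 and -0.29 within the batches), Zfpm2 (-0.03, SE 0.28) and Sulf1 (0.02, SE 0.26) each moved by little more than 1 standard error or less. With standard errors of this size, a change as large as that of Hs3st4 would not have been detectable.

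In these cells 0 of 8 members were called by edgeR without the block, 0 by DESeq2 and 1 with the block, and 1 had an unadjusted p under 0.05 (1.31% of genes in the Rprm choice). In cells chosen with all 8 members, 0% of 10380 genes passed without the block, 0.116% with it and 0.0202% by DESeq2, and 1.23% had an unadjusted p under 0.05. Both cKO libraries were below both controls in 2 of 8 members, beside 15.9% of all genes in those cells (15.6% in the Rprm choice). The median fold change was -0.24 over the members and 0.01 over all genes. In cluster 10, 5 of 8 did not overlap, all lower in cKO (Rprm, Hs3st4, Sulf1, Zfpm2 and Nxph3), beside 13.8% of 10181 genes. There 0 of 8 were called by edgeR with its filter and no block (0% of genes) or by DESeq2, and 1, Rprm, with the block or with no filter, and 2 had an unadjusted p under 0.05, beside 3.36% of all genes.

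**Figure D3:**
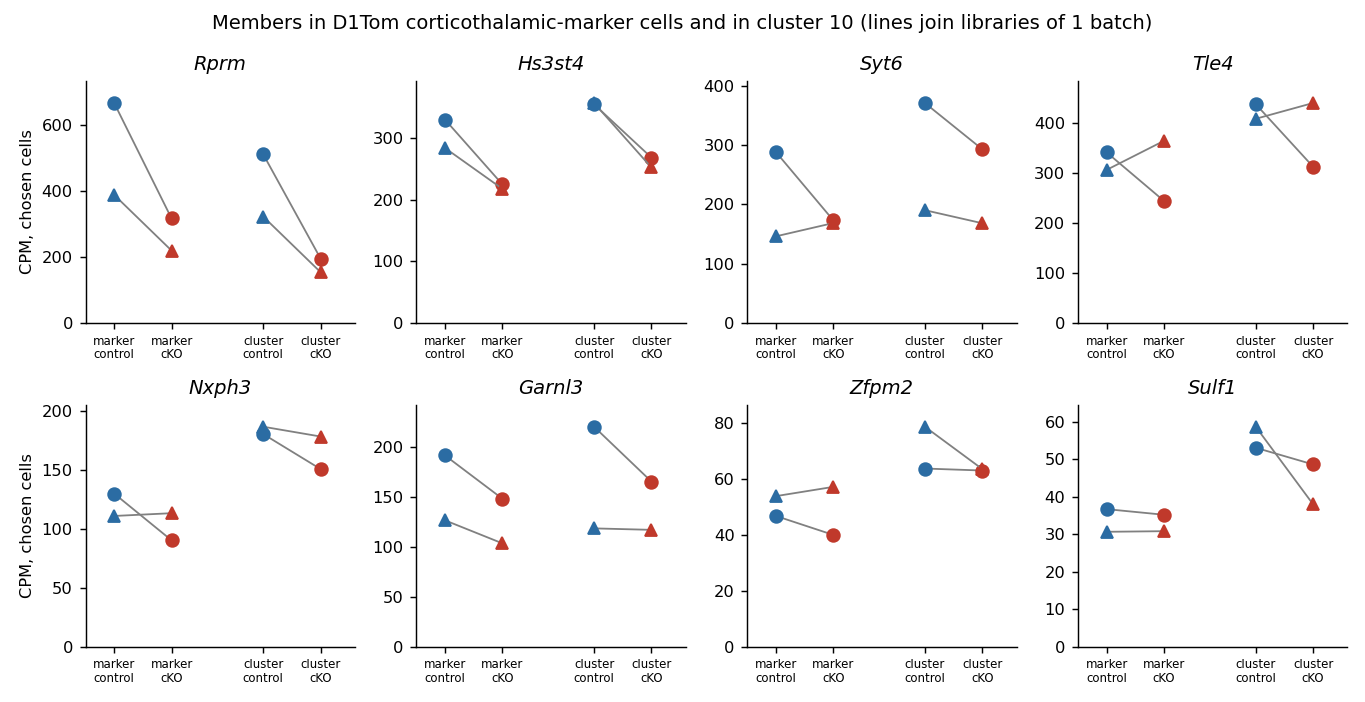
Level of each member (CPM of the chosen cells, linear axis from 0) in D1Tom corticothalamic-marker cells chosen without that member and in cluster 10, with lines joining the control (blue) and cKO (red) library of a batch (circle batch 1, triangle batch 2). Rprm, Hs3st4 and Garnl3 fall along all 4 lines, Garnl3 by very little in batch 2 of cluster 10 (log2 ratio -0.02). Tle4 goes down in batch 1 and up in batch 2.

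**Figure D4:**
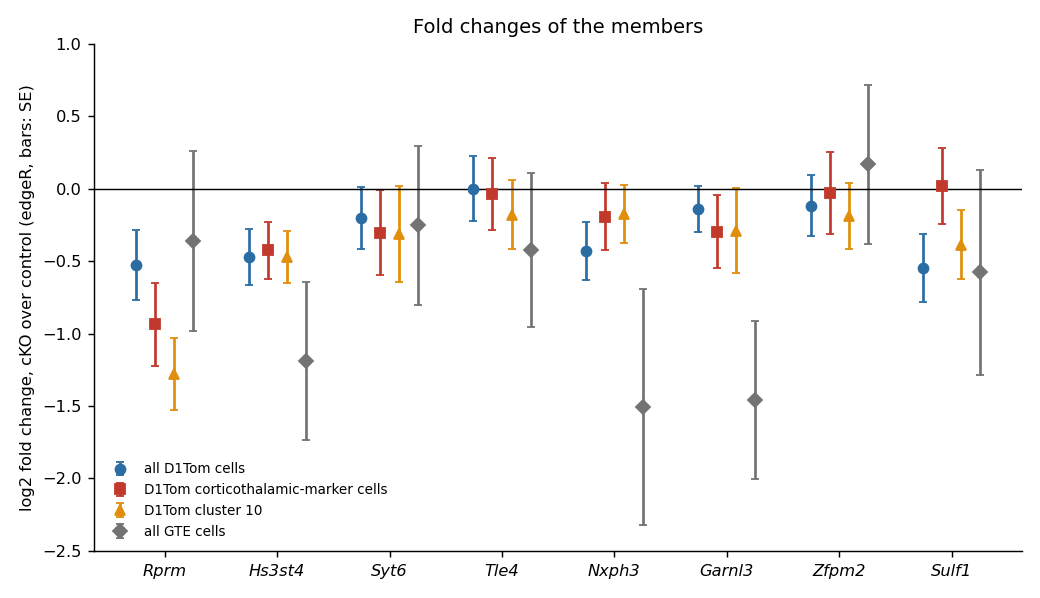
Log2 fold change of each member, cKO over control, with its standard error, from edgeR on sums per library (2 against 2) in 4 sets of cells. Rprm in corticothalamic-marker cells (-0.94) and cluster 10 (-1.28) is the farthest from 0 in the D1Tom sort, and the GTE bars are the widest.

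Cluster 10 was also split by whether a cell had a Foxp2 count, which was not used in the clustering. In the controls, Rprm was at 608 and 388 CPM in cells with a Foxp2 count and at 173 and 117 CPM in cells without, and in the cKO libraries at 188 and 192 CPM with and 199 and 118 CPM without. Control cells with a Foxp2 count were thus above the other 3 kinds of cells. Syt6 followed a like split in the controls, at 456 and 232 CPM with and 74.9 and 57.2 CPM without, but in cKO 1 cells without Foxp2 it was at 285 CPM beside 307 CPM with it, and cKO 2 had 106 and 235 CPM. Hs3st4 was at 380 and 391 CPM in control cells with Foxp2, at 266 and 250 CPM in those without, and between 250 and 269 CPM in both kinds of cKO cells. Nxph3 was lower in cells with a Foxp2 count in all 4 libraries (160, 170, 114 and 130 CPM against 251, 241, 171 and 223 CPM). In the controls Tle4 was at 429 and 388 CPM with a Foxp2 count and 464 and 467 CPM without. Sulf1 was at 52.5 and 53.8 CPM with and 54.9 and 73.9 CPM without, and Zfpm2 at 72.5 and 75.0 with and 33.3 and 90.6 without. Garnl3 was higher with it in both controls, at 235 and 122 against 170 and 107 CPM.

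Several things moved with that split. Layer 6b-marker cells were 2, 4, 0 and 0 of the cells with a Foxp2 count and 9, 9, 3 and 9 of those without, and the 6 layer 6b markers summed to 42.8 to 164 CPM in the former and 183 to 751 CPM in the latter. Without layer 6b-marker cells Rprm was at 625 and 411 CPM in control cells with Foxp2 and at 315 and 174 CPM in those without, and in the cKO libraries at 188 and 192 CPM with and 236 and 144 CPM without. Control 1 cells without Foxp2 then lay above all the cKO cells. The cells with a count were also deeper in control 1 (median 16416 against 3547.5) and cKO 1 (15518 against 3311.5), less so in control 2 (18993 against 15351) and not in cKO 2 (12165 against 12470). What part of the difference these values carry was not tested.

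**Figure D5:**
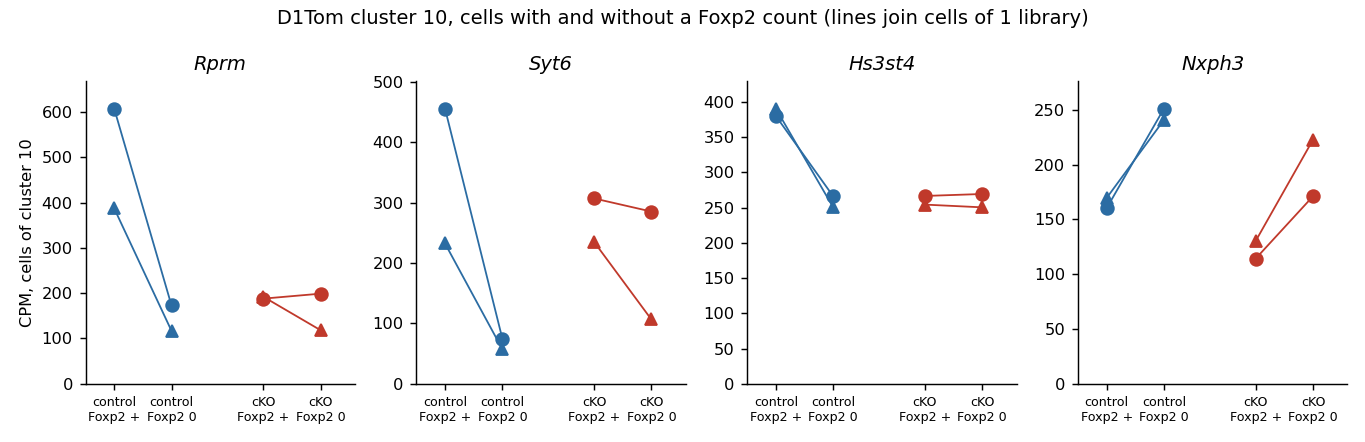
Level of Rprm, Syt6, Hs3st4 and Nxph3 (CPM, linear axis from 0) in cells of D1Tom cluster 10 with (Foxp2 +) and without (Foxp2 0) a Foxp2 count, with lines joining the cells of 1 library (blue control, red cKO, circle library 1, triangle library 2). For Rprm the control cells with Foxp2, at 608 and 388 CPM, lie above all others.

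In the GTE sort the members could be compared over all cells only. Cells with excitatory markers were 1.75%, 3.71%, 1.46% and 2.33% of these libraries, so the values below come mostly from cells not classed as excitatory. Corticothalamic-marker cells numbered 0, 23, 1 and 1, and 3 of the 4 libraries were under the 20 cells set for a test. A cell needs 3 markers seen to be counted, and at these depths many cells of the type can be missed. Over all GTE cells the 2 libraries of a genotype lay far apart: Tle4 was at 26.6, 103, 90.1 and 36.2 CPM, Zfpm2 at 4.10, 29.7, 40.0 and 10.4 CPM and Hs3st4 at 20.7, 82.4, 13.2 and 35.0 CPM. For all 8 members the 2 controls differed from each other by more than the group means did, narrowly so for Garnl3 (group means 77.5 and 32.0 CPM). Garnl3 was the one member with no overlap, at 52.9, 102, 20.7 and 43.3 CPM (beside 6.67% of genes with both cKO libraries below both controls). It had a log2 fold change of -1.46 (SE 0.55), an unadjusted p of 0.00847 by edgeR and an adjusted p of 0.745, and 0.0730 to 1.00 over its alternatives. Leaving out a library moved it from -2.60 (without cKO 2) to -0.79 (without cKO 1). The 6 general excitatory markers, at 259, 438, 133 and 270 CPM, were, like Garnl3, highest in control 2 and lowest in cKO 1, and 5 oligodendrocyte precursor markers were at 1002, 1075, 3357 and 1364 CPM. The part of these cells in the Garnl3 values was not tested. Of the 8 members 0 were called by edgeR (4 of 12042 genes, 0.0332%, were, and 0% with a replicate block) and 0 by DESeq2 (0.0127% of genes), and 2 had an unadjusted p under 0.05, beside 5.22% of all genes.

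The remaining GTE members had wide errors. Hs3st4 had a log2 fold change of -1.19 (SE 0.55) that was -0.14 without control 2 and -2.60 without cKO 2. Nxph3 was at 1.97, 5.95, 0.789 and 2.30 CPM (-1.51, SE 0.82, and -2.94 to -0.70 with a library left out). Zfpm2 had the one positive fold change (0.17, SE 0.55), which was 0.58 with library totals and -0.59 to 1.89 with a library left out. Tle4 (-0.42), Sulf1 (-0.58) and Syt6 (-0.25) turned to 0.58, 0.70 and 0.24 without control 2. Without cKO 1, Syt6 turned to 0.28 and Zfpm2 to -0.57. Rprm, at 164, 215, 214 and 169 CPM, had -0.36 with TMM scaling and 0.02 with library totals. In this sort the scaling mattered for all genes: the median fold change was -0.05 with TMM and 0.38 with library totals, and the share of genes with a negative fold change 53.1% and 27.7%. Tle4 and Syt6 were at -0.03 and -0.02 with library totals, and Garnl3, Hs3st4 and Nxph3 at -1.27, -1.09 and -1.32.

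Genes linked to the members were examined from 3 lists. The 14 other corticothalamic and deep layer genes were all tested in D1Tom corticothalamic-marker cells. Without the block edgeR called 0 of them (0% of all genes), and DESeq2 called 1, Foxp2 (0.0202% of all genes). With the block edgeR called 3, all with negative fold changes, beside 0.116% of all genes. The 3 were Foxp2, Drd, taken here as the D1 receptor gene (240, 207, 119 and 115 CPM, -0.88, SE 0.20), and Ppp1r1b (DARPP-32, a phosphatase inhibitor of dopamine signalling, at 289, 126, 130 and 74.5 CPM, -0.96, SE 0.38), whose groups overlapped. All 3 also had an unadjusted p under 0.05 without the block, as did 1.23% of all genes. The fold changes of Tbr1 (-0.00, SE 0.22), Sox5 (-0.20, SE 0.20), Fezf2 (0.11, SE 0.31) and Bcl11b (0.02, SE 0.24), transcription factors of deep layers, were no larger than 1 standard error, and Ntsr1, a neurotensin receptor used to mark these neurons, was at 31.3, 24.1, 31.8 and 26.5 CPM. Tbr1 and Fezf2 were themselves among the fixed markers by which cells were assigned to types. Their own counts thus took part in choosing the cells they were read in, which can hold their levels alike. The list's median fold change was 0.03, beside 0.01 for all genes.

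Of 34 relatives of the members (other Tle, synaptotagmin, 3-O-sulphotransferase, neurexophilin and Rap regulator genes), 26 were tested in D1Tom corticothalamic-marker cells and none was called. This count of 0 held for edgeR with and without the block, for DESeq2 and at an unadjusted p of 0.05, and the median was -0.02. The smallest p were those of Tle1 (7.98, 13.7, 15.1 and 22.7 CPM, 0.85, SE 0.48), Nxph1 (-0.60, SE 0.43) and Syt4 (-0.37, SE 0.28). Of 16 heparan sulphate genes, 14 were tested and 0 called by edgeR or DESeq2, and 0 had an unadjusted p under 0.05. The smallest p were those of Hs6st1 (0.42, SE 0.28), Ndst2 (-0.95, SE 0.65) and Hs3st1 (0.47, SE 0.44).

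Over all D1Tom cells, edgeR called 0 genes in each of the 3 lists, of which the latter 2 share 3-O-sulphotransferases, and DESeq2 called 1, Drd (adjusted p 1.42e-08). Those with an unadjusted p under 0.05 were 4 of 14 deep layer genes (Drd -1.37, Foxp2 -0.67, Ppp1r1b -1.30 and Ntsr1 -0.62), 0 of 34 relatives and 1 of 16 heparan sulphate genes (Hs6st2, 86.3, 90.1, 66.4 and 58.9 CPM, -0.43). Among all genes this share was 2.21%. The relatives closest to the threshold were Tle1 (0.30), Hs3st6 (-0.80) and Nxph4 (-0.62). Over all GTE cells 0 genes of any list were called by edgeR or DESeq2. Unadjusted p was under 0.05 for 3 of 13 deep layer genes (Tbr1 -1.35, Crym -1.33 and Foxp2 -1.19), 4 of 27 relatives (Syt13, Syt5, Tle2 and Hs3st5) and 1 of 14 heparan sulphate genes (Hs3st5 again). Among all genes of this sort the share was 5.22%.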

How the data were processed

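Cells were profiled with a 10x Genomics 3' kit. The authors deposited counts, with genes as rows and cells as columns, in 1 table a sort, and a table of each cell's library and batch. Per the submitters' processing notes, which give no order, tools included Cell Ranger 2.1.1, UMI-tools 0.5.4, STAR 2.5.2b and featureCounts (Subread 1.6.2), with builds mm10 and GRCm38.p6. In 4 of 8 libraries, both of D1Tom batch 1 among them, values of 2 outnumbered values of 1, so sums carry no Poisson interval. The members and lists were chosen with earlier results of these data known, among them the lower Rprm in corticothalamic-like cells, which is not independent support here.

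Cells were assigned to types by the capped mean ratio of marker counts to the sort's mean, with 3 or more markers seen for an excitatory type. Clusters (scanpy 1.11.5, Leiden at resolution 1, 2000 variable genes, 30 components, 20 neighbours) left out the members, Foxp2, Drd and sex-linked, mitochondrial, ribosomal and haemoglobin genes. Cluster names were made anew and may not match those of the authors. No cell was dropped as a doublet, except in an alternative that left out 17 to 125 cells per library by Scrublet score. Clustering left out 143 GTE cells under 500 counts.

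Counts were summed per library and tested with edgeR 4.0.16 (quasi-likelihood, TMM, default filter, Benjamini-Hochberg at 0.05), with DESeq2 1.42.0 as an alternative. The edgeR fit without a block was run on simulated counts. Of 100 genes given an absolute log2 fold change of 1, it called 16% over all D1Tom cells and 3% over all GTE cells. In corticothalamic-marker cells it called 21%. At an absolute change of 3 the shares were 100%, 90% and 99%. A count of 0 called thus says little about changes near 1. Nothing says that libraries came from more than 1 animal each or from separate ones, so p-values measure the spread between libraries. D1Tom numbers pair libraries because same-numbered ones are of 1 batch; their deviations correlated at 0.48 over 14508 genes and 0.44 over 10380 in corticothalamic-marker cells. All members are named. Of the lists, genes past the threshold are named and, where fewer than 3 pass, the 3 with the smallest p. Likeness genes are the 3 with the highest r. Intervals and limits cover counting error only. Drd is the tables' own symbol. A further gene list is not reported here.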

Additional observations from a re-analysis of the deposited data

How the results depend on the processing

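Over all cells of either sort, 0 of 8 members were called under every alternative run: DESeq2, no filter, library totals, the replicate block, no doublets and each library left out. In D1Tom corticothalamic-marker cells 1 of 8, Rprm, was called with the replicate block (-0.92, adjusted p 1.22e-06) and without control 2 (-1.26, adjusted p 0.0442), 0 to 1 over the libraries left out, and 0 under each other alternative, the clusters with edgeR's filter and no block and the 2 choices of cells added after seeing the data included. In cluster 10 itself Rprm was also called with no filter (adjusted p 2.19e-05) and with the block (2.89e-07). The block changed no other call of a member. Rprm kept a negative fold change there under all alternatives, -0.53 to -1.26 over the libraries left out, as did Hs3st4 (-0.51 to -0.34). Other members changed sign, the cause of which was not tested. Over all D1Tom cells these were Tle4 (-0.08 with library totals, -0.03 with the block, -0.0018 by DESeq2, -0.0035 without doublets, -0.33 to 0.28 over libraries left out), Syt6 (-0.45 to 0.10) and Zfpm2 (-0.34 to 0.09). In GTE this was so for Rprm (0.02 with library totals) and, over libraries left out, Tle4 (-1 to 0.58), Syt6 (-1.01 to 0.28), Sulf1 (-1.24 to 0.70) and Zfpm2 (-0.59 to 1.89). In corticothalamic-marker cells Sulf1 turned without the filter (-0.01), with library totals (-0.03), with thinned cells (-0.42), by cluster (-0.39) and there without layer 6b-marker cells (-0.31), and Zfpm2 with 1 more marker (0.08). Over libraries left out the ranges there were Tle4 -0.43 to 0.27, Syt6 -0.69 to 0.24, Sulf1 -0.09 to 0.13, Zfpm2 -0.36 to 0.29, Nxph3 -0.44 to 0.03 and Garnl3 -0.54 to 0.01. For GTE the labels carry the D1Tom batch text, whose sexes go against those of the GTE libraries, so the pairing was treated as unknown. Same-numbered GTE libraries deviated in opposite ways (-0.34). With the labelled numbers as a block 0 of 12042 genes were called, and with the numbers crossed, 24 of 12042 genes and 0 of 8 members were called. Leaving out a library assumes that the lone library varies like the others. Of the shares of cells, 14 moved beyond their intervals at 2000 counts. GTE corticothalamic-marker cells were too few for any fit, and members near 10 CPM or less over all cells (Sulf1, and Nxph3 in GTE) are limited by depth.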

Other observations

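In GTE cluster 10, an unnamed cluster nearest to the corticothalamic list, 78 of 116 cells came from control 2, against 7, 25 and 6 from control 1, cKO 1 and cKO 2. Between the libraries with the most cells, control 2 and cKO 1, Tle4 differed as 493 to 96.8 CPM, Hs3st4 as 417 to 37.2 CPM and Rprm as 671 to 477 CPM, with 1 library a genotype and no test. The cluster was picked for its high median level of the members. At 5000 counts per cell, 3 or more members were seen in 73.9% of 23 control 2 cells and 30% of 10 cKO 1 cells. No member was seen in 0% and 40% of them. Whether the cells of the 2 libraries are of the same type was not tested. Nxph3 was at 48.4 CPM in control 2 and had no count in the other 3 libraries. In D1Tom cluster 10, at 5000 counts drawn per cell, the mean number of members seen in a cell was 4.40, 4.13, 3.52 and 3.78, in 127, 97, 42 and 65 cells deep enough. All 8 members were seen together in 0% of them.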
